A study of Mus musculus with 12 samples.

Results

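Interferon response genes were followed across the allele combinations of Foxo1 in a mouse Burkitt lymphoma cell line. The genes came from a list of 39 interferon-stimulated genes, given by symbol. Each gene was read through the probe set of its symbol with the highest mean over the 12 arrays. Of the 39 genes, 37 had a probe set naming that gene alone. Ifi44 and Isg15 had none and were not analysed here. A further 5 genes (Oas2, Oasl2, Mx1, Cmpk2 and Usp18) lay above the array's median level on fewer than 3 arrays, the limit set for testing. That left 32 tested members among 11458 genes tested, out of 18194 genes with a probe set of their own. Ifit1 passed this limit most narrowly, with 3 arrays above the median. Stat2 did so on 6, Oas3 and Ifit3 on 10 and Mndal on 11, and the other tested members did so on 12.

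The study used line BL#19, an isogenic line edited with CRISPR/Cas9, on arrays of total RNA, with 3 arrays for each of 4 genotypes. The combination with both alleles, written wt+/mt+, carries mouse wild-type Foxo1 and mouse Foxo1 with the T24P substitution. In wt-/mt+ the wild-type allele was knocked out, in wt+/mt- the T24P allele was knocked out, and in wt-/mt- both were. All groups are this same lymphoma line, and the labels state no treatment with interferon. These groups are called both-allele, T24P-only, wild-type-only and double-knockout cells below. No label tells whether the 3 arrays of one genotype are separate clones, cultures or repeat preparations, so a p-value here speaks to the variation among arrays and that variation may be technical.

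Interferons bind surface receptors whose kinases phosphorylate STAT proteins. A complex of STAT proteins with IRF9 binds the interferon-stimulated response element (ISRE) in target promoters, and STAT dimers bind the gamma-activated site (GAS). The induced genes include sensors of viral nucleic acid, enzymes and binding proteins that block viral replication, the ISG15 ubiquitin-like system, GTPases that attack intracellular pathogens, and subunits that generate peptides for MHC class I. Many of these genes are transcribed at a basal level without added interferon, in B cells as in other cells. FOXO1 is a forkhead transcription factor that AKT phosphorylates, among other sites at the threonine that T24P replaces, which drives it out of the nucleus.

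All expression values are log2 levels from the robust multi-array average (RMA), so a difference of 1 is a change by a factor of 2. A change is the difference between genotype means from a limma fit over all 12 arrays in which each genotype has its own variance weight. A gene was called where its Benjamini-Hochberg adjusted p over the 11458 genes was below 0.05, and "rose" or "fell" is used of called genes alone. Foxo1 itself read 11.56, 11.63 and 11.72 in both-allele cells, 11.57, 11.16 and 11.64 in T24P-only cells, 12.10, 11.92 and 11.59 in wild-type-only cells, and 10.23, 9.39 and 10.34 in double-knockout cells. It fell after loss of both alleles by 1.65 (SE 0.28, limma adjusted p = 0.00473). The sources used here do not tell how each edit alters the transcript, and this probe set therefore does not check the labels of the single knockouts. All 7 measured B cell identity genes, among them Cd79a, Pax5 and Ebf1, lay above the array's median level on all 12 arrays. The median SD within a genotype over all tested genes was 0.10 in both-allele cells, 0.11 in T24P-only cells, 0.13 in wild-type-only cells and 0.26 in double-knockout cells, and over the tested members it was 0.11, 0.11, 0.13 and 0.38. In wt+/mt- replicates 1 and 2, the 3' minus 5' difference of the actin control probe sets was 2.17 and 1.71, against 1.06 to 1.29 on the other 10 arrays. On single wt-/mt- arrays, whole chromosomes lay off the wt+/mt+ mean: the median of chromosome 12 was -0.66 and that of chromosome 1 was -0.31 in replicate 1, chromosome 6 was 0.33 in replicate 2, and chromosomes 16 and 8 were 0.34 and -0.27 in replicate 3.

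The promoters shown are those of the 6 members that fell after loss of the T24P allele without the wild-type allele, to show which hold an interferon element and where. Promoter windows of 250 bases before to 50 after a start came from RefSeq (GRCm38.p6) and were found for 31 of the 39 genes. The ISRE core was searched as GAAA, 2 bases of any kind and GAAA (on the other strand TTTC, 2 bases and TTTC). The GAS core was searched as TTCNNNGAA, which reads the same on both strands, and a forkhead motif as GTAAACA or TGTTTAC. Matches were allowed to overlap each other. An ISRE core was held by 16 of the 31 members (51.6%), against 3.99% of 27025 genes in the table. A GAS core was held by 9 members (29.0%), against 9.55% of genes. The forkhead motif was held by Gbp3 and Rsad2, 2 of 31 (6.45%), against 4.05% of genes. Below, capitals mark the ISRE core. The windows of Isg20, the first of its 3, and of Xaf1 hold none and are printed in lower case throughout.
Mndal promoter, chr1:173880138-173880437, minus strand: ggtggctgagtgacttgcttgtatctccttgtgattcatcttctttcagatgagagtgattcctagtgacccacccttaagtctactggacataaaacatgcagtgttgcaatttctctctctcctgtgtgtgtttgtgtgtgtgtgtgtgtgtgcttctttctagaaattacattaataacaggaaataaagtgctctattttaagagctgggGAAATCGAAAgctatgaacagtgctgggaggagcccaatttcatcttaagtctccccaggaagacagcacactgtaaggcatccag
Mndal promoter, chr1:173879909-173880208, minus strand: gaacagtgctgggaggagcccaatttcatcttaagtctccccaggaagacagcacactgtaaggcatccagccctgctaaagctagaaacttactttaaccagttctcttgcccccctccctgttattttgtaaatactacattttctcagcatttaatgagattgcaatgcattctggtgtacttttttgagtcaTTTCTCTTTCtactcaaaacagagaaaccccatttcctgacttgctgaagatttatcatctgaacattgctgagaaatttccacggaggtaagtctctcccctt
Ifit1 promoter, chr19:34640639-34640938, plus strand: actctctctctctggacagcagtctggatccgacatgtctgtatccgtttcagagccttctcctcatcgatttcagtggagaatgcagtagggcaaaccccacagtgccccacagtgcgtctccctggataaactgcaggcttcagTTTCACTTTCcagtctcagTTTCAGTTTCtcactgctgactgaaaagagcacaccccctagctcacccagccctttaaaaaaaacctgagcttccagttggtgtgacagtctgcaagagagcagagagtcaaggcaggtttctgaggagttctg
Ifit3 promoter, chr19:34583279-34583578, plus strand: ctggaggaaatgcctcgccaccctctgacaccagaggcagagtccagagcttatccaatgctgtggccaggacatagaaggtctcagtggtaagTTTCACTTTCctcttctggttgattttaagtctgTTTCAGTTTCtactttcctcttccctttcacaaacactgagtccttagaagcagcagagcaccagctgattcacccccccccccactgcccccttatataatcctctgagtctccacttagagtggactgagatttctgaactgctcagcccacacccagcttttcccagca
Gbp2 promoter, chr3:142620413-142620712, plus strand: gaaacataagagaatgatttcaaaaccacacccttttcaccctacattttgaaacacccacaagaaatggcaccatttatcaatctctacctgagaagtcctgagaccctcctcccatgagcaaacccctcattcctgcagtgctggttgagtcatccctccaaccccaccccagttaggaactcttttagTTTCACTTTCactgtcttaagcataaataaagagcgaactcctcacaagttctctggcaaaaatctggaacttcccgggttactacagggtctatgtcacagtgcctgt
Isg20 promoter, chr7:78913174-78913473, plus strand: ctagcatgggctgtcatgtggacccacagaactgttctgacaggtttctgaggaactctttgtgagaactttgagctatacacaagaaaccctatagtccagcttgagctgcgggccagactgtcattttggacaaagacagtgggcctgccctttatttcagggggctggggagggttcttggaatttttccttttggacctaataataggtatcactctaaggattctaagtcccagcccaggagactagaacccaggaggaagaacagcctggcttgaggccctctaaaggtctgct
Xaf1 promoter, chr11:72301379-72301678, plus strand: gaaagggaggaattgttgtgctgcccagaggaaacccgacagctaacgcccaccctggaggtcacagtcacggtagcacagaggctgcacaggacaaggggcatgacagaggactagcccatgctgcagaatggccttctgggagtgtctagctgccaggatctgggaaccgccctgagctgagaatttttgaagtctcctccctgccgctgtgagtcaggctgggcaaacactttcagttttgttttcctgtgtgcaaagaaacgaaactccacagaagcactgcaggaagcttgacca
The ISRE cores began 36 and 54 bases before the 2 annotated starts of Mndal, 104 and 85 bases before that of Ifit1, 156 and 122 before that of Ifit3 and 59 before that of Gbp2. The GAS core of Isg20 began 73 bases before the first of its starts, and the Xaf1 window held none of the 3 motifs. Of the 6 members that fell after loss of the T24P allele without the wild-type allele (below), 4 held an ISRE core, and so did 11 of the 21 tested members with a promoter that were not called there. A match is a run of letters and does not show binding.

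Mndal and Isg20 fell after loss of both alleles, and 0 of the 32 tested members rose. Mx1, too dim to be tested, is given with the dim members below. Most members lay below their level in both-allele cells without reaching the threshold. Of 32 tested members, 2 fell and 0 rose, or 6.25% and 0%, where over all tested genes 4.80% fell and 2.76% rose, so the counts are near the background. The median change of the members was -0.24, against 0.05 over all tested genes. Changes below 0 were 24 of 32, against 5108 of 11458 over all tested genes. At an unadjusted p below 0.05, 9 members were lower and 1 was higher, against 1387 and 1539 of 11458 genes. The count that fell was 5 without wt+/mt+ replicate 1 and 4 without wt+/mt- replicate 1 or 2, and 1 member rose without wt-/mt- replicate 3. In those fits 681, 532 and 525 of 11458 tested genes fell, in that order, and 236 rose without wt-/mt- replicate 3. Array by array, the median member stood at -0.33, -0.14 and -0.28 relative to the wt+/mt+ mean in the 3 wt-/mt- arrays, where the median of all tested genes stood at 0.05, 0.09 and 0.02. On every one of the other 9 arrays the median member lay between -0.07 and 0.12.

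**Figure D1:**
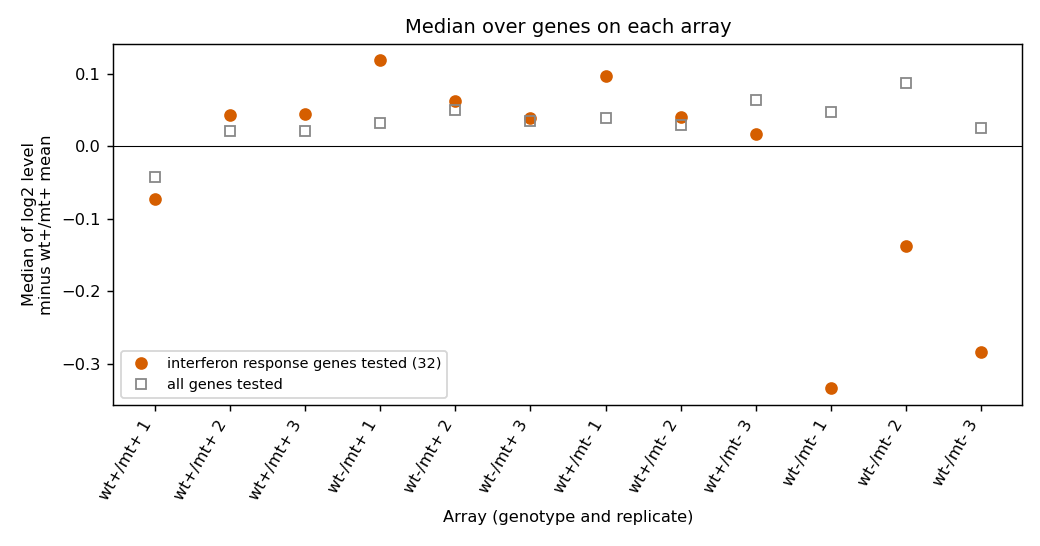
The median over the 32 tested interferon response genes (filled circles) and over all tested genes (open squares) of the log2 level minus the wt+/mt+ mean, for each of the 12 arrays. The members' medians in the 3 wt-/mt- arrays are -0.33, -0.14 and -0.28, below those of the other 9 arrays, while the medians of all tested genes stay between -0.04 and 0.09.

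Removal of the T24P allele from cells that lacked the wild-type allele gave the most calls. Mndal, Isg20, Xaf1, Gbp2, Ifit3 and Ifit1 fell, 6 of 32 (18.8%), against 5.27% of all tested genes, and 0 of the 32 tested members rose, against 2.78%. Ifit1 met the limit for testing in part through T24P-only arrays, where it is high, so its place in this count depends on the limit. The same limit left out Mx1, which is higher in double-knockout cells (below). The members' median change was -0.32, against 0.01 over all tested genes. Changes below 0 were 24 of 32, against 5607 of 11458 over all tested genes. At an unadjusted p below 0.05, 14 members were lower and 1 was higher, against 1576 and 1241 of 11458 genes. The count that fell was 2 without wt-/mt- replicate 1, 4 without replicate 2 and 4 without replicate 3 of that genotype. Without wt-/mt+ replicate 3 it was 9, and 1 member rose without wt-/mt- replicate 3. With a spread shared by all genotypes, 13 members fell. Over all 11458 tested genes, 604 fell in the main fit, and 341, 311 and 475 without wt-/mt- replicates 1, 2 and 3. That count was 634 without wt-/mt+ replicate 3 and 1269 with the shared spread. Without wt-/mt- replicate 3, 268 genes rose. After removal of the wild-type allele from cells that lacked the T24P allele, Mndal alone fell among the 32 tested members (3.13%), against 2.65% of all tested genes. There, 0 members rose, against 0.829% of all tested genes. Below 0 were 26 of 32 changes, against 5829 of 11458 over all tested genes, and the members' median was -0.19, against -0.01. The count that fell was 2 without wt+/mt+ replicate 1, wt-/mt+ replicate 2 or wt+/mt- replicate 1 or 3, and 1 member rose without wt-/mt- replicate 3. In those fits 279, 282, 228 and 426 of 11458 tested genes fell, in that order, and 66 rose without wt-/mt- replicate 3.

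With one allele kept, the changes were smaller. Loss of the wild-type allele with T24P present called 0 of 32 members in either direction by limma, where 0.105% of all tested genes rose and 0.0611% fell. At an unadjusted p below 0.05, 6 members were higher and 0 lower, against 1212 and 460 of 11458 tested genes. The median change was 0.11, against 0.04 over all tested genes. Every other setting tried also called 0 members there. After loss of T24P with the wild-type allele present, Zbp1 and Oasl1 rose and Eif2ak2 fell, so 2 of 32 (6.25%) rose and 1 (3.13%) fell, against 5.93% and 2.37% of all tested genes. The median change of the members was 0.06, against 0.04. Leaving out 1 array kept both rises only for replicate 2 of wt+/mt+ and replicate 2 of wt-/mt+, and kept the fall of Eif2ak2 only for replicate 1 of wt+/mt+ and replicate 3 of wt+/mt-. The direction of that split moved with the scaling: centring each array on its median shifted the median of all tested genes from 0.04 to -0.11 and gave 0 members higher and 3 lower. Over all tested genes, 679 rose and 271 fell as deposited, and 244 rose and 1037 fell after centring.

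Set side by side, cells with T24P alone had more Isg20, Psmb9 and Eif2ak2 and less Oasl1 than cells with the wild-type allele alone. That is 3 of 32 members higher (9.38%) and 1 lower (3.13%), against 2.94% and 4.35% of all tested genes. Centring each array on its median shifted the median of all tested genes from 0.00 to 0.11 and gave 7 members higher and 0 lower. Over all tested genes, 337 were higher and 498 lower as deposited, and 1065 and 307 after centring. Of the 3 arrays with the wild-type allele alone, 2 are those with the high actin difference. With a spread shared by all genotypes 0 members were called in this comparison, with those 2 arrays as without them. The count higher was 0 without wt+/mt- replicate 2 and 1 without replicate 1 of that genotype or replicate 2 of wt-/mt+. Of all tested genes, 2, 89 and 82 were higher in those fits, in that order. On leaving out 1 array, the call of Oasl1 was kept only for replicates 2 and 3 of wt+/mt+ and replicate 3 of wt+/mt-. The comparisons share arrays with each other, so their values for one gene are not independent.

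**Figure D2:**
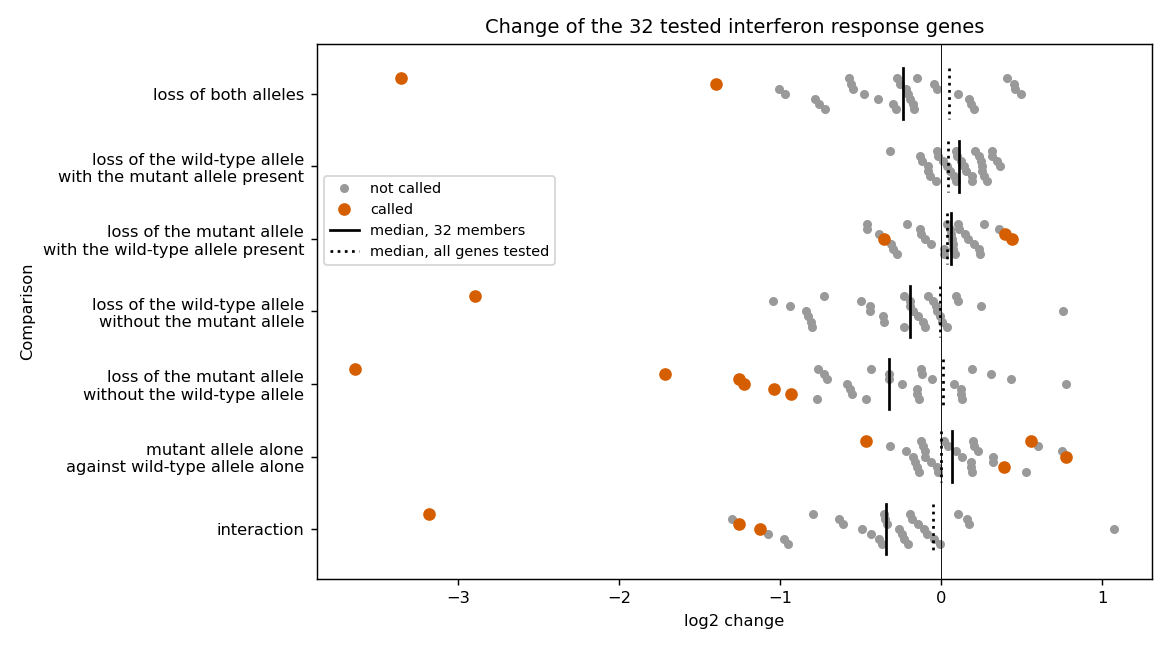
The log2 change of each of the 32 tested interferon response genes in the 6 comparisons and the interaction (rows), with called genes in orange and others in grey. Solid bars mark the members' median and dotted bars the median of all tested genes. The called genes reach furthest below 0 in the 3 comparisons that involve wt-/mt- arrays and in the interaction, where Mndal lies at -3.36, -2.90, -3.64 and -3.18.

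The interaction asked whether loss of T24P changed a gene differently without than with the wild-type allele. It was below 0 for 28 of 32 members, against 6463 of 11458 tested genes, with a median of -0.34 against -0.05 over all tested genes. It was called lower for Mndal, Isg20 and Ifit3, 3 of 32 (9.38%), against 2.44% of all tested genes, and higher for 0 members, against 0.698%. It was called for 1 member without wt+/mt+ replicate 1 or 3, wt-/mt+ replicate 3, wt+/mt- replicate 2 or 3, or wt-/mt- replicate 1. An F test over the 4 genotypes called 7 of 32 members (21.9%): Mndal, Isg20, Psmb9, Eif2ak2, Xaf1, Zbp1 and Ifit3, against 13.4% of all tested genes. It called 4 without replicate 1 or 3 of wt-/mt+ or replicate 2 of wt+/mt-.

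Among the transcription factors that drive the response, 0 of the 4 tested members were called in any of the 6 comparisons by limma. Irf7, which amplifies type I interferon transcription, read 6.49, 6.60 and 6.81 in both-allele cells, 6.78, 6.68 and 6.87 in T24P-only cells, 6.82, 6.69 and 7.01 in wild-type-only cells, and 7.10, 6.70 and 7.46 in double-knockout cells. All but 1 of the wt-/mt- arrays were above every both-allele array, and the change after loss of both alleles was 0.45 (SE 0.21, limma adjusted p = 0.205). Irf9, the DNA-binding partner of the STATs, read 7.47, 7.75 and 7.55 in both-allele cells, 7.40, 7.65 and 7.37 in T24P-only cells, 7.83, 7.76 and 7.49 in wild-type-only cells, and 7.34, 7.55 and 7.11 in double-knockout cells, and the genotypes overlapped. Stat2 read 5.99, 6.23 and 6.19 in both-allele cells, 6.15, 6.29 and 6.00 in T24P-only cells, 6.14, 6.51 and 6.21 in wild-type-only cells, and 6.03, 5.97 and 6.27 in double-knockout cells, with all 4 genotypes overlapping. Its change after loss of both alleles was -0.04 (95% interval -0.49 to 0.40). Stat2 reads near the array medians of 6.08 to 6.25, which limits what its lack of change shows. Irf1, induced most strongly by interferon gamma, ranged from 8.66 to 9.44, the highest array being wt-/mt- replicate 1. In the 6 comparisons, 1 of the 4 factors reached an unadjusted p below 0.05, in the loss of T24P with the wild-type allele present, where Irf1 changed by 0.26 (SE 0.11, limma adjusted p = 0.168).

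Of the sensors of foreign nucleic acid, Mndal made the largest change of all tested members. Mndal belongs to the p200 family of DNA-binding proteins encoded in a cluster on chromosome 1. It read 9.66, 9.71 and 9.55 in both-allele cells, 10.54, 9.60 and 9.64 in T24P-only cells, 9.39, 8.81 and 9.34 in wild-type-only cells, and 6.75, 7.05 and 5.05 in double-knockout cells. The wt-/mt- arrays all lay below every other array, with replicate 3 the lowest. Mndal fell by 3.36 after loss of both alleles (SE 0.48, limma adjusted p = 0.00165), by 3.64 after loss of T24P without the wild-type allele (SE 0.49, limma adjusted p = 0.00100) and by 2.90 on removing the wild-type allele from cells lacking T24P (SE 0.50, limma adjusted p = 0.00857). Against both-allele cells, Mndal changed by 0.29 (SE 0.23) where the wild-type allele alone was lost and by -0.46 (SE 0.27) where T24P alone was lost, neither called. With a spread shared by all genotypes, the adjusted p in the comparison with wild-type-only cells was 0.00261 with all 12 arrays and 0.0922 without both wt+/mt- arrays of high actin difference, where the change was -3.06. These 2 values are the lowest and highest over the other settings. A second Mndal probe set changed by -3.07 after loss of both alleles. The probe set used is of a type that can also match related transcripts, and the p200 genes are close copies, so signals of Mndal and its neighbours are not fully separate.

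Of the other listed genes of the p200 cluster, 3 were tested. Ifi209, 4 genes away, read 7.39, 7.08 and 7.00 in both-allele cells, 7.52, 7.24 and 7.63 in T24P-only cells, 7.02, 6.52 and 7.15 in wild-type-only cells, and 5.03, 6.80 and 5.69 in double-knockout cells. It fell by 1.32 after loss of both alleles (SE 0.36, limma adjusted p = 0.0436) and by 1.63 after loss of T24P without the wild-type allele (SE 0.36, limma adjusted p = 0.0176). Its lowest array was wt-/mt- replicate 1, where chromosome 1 as a whole lay at -0.31, while the lowest array of Mndal was replicate 3, where chromosome 1 lay at 0.04. With every array centred within each chromosome, Mndal changed by -3.15 after loss of both alleles. Aim2, the DNA sensor of the inflammasome, and Ifi203 were not called in any comparison.

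The sensor Zbp1, which binds left-handed nucleic acid and triggers cell death, was among the members that rose. It read 6.53, 6.82 and 6.58 in both-allele cells, 7.12, 6.86 and 7.04 in T24P-only cells, 7.02, 7.14 and 6.94 in wild-type-only cells, and 6.90, 7.34 and 7.18 in double-knockout cells. Every array lacking an allele was above every both-allele array. Zbp1 rose by 0.39 after loss of T24P with the wild-type allele present (SE 0.11, limma adjusted p = 0.0457), a call kept under 4 of 20 other settings, with adjusted p from 0.0353 to 0.967 over them. Ddx58, which encodes RIG-I, ranged from 8.49 to 8.91 outside wt-/mt- and read 7.61, 8.62 and 7.68 in double-knockout cells, a change of -0.76 after loss of both alleles (SE 0.24, limma adjusted p = 0.0737). Dhx58, its regulator, read 8.27, 8.81 and 7.75 in double-knockout cells against 8.54 to 8.86 in both-allele cells. Ifih1, which encodes MDA5, read 6.36, 7.66 and 6.62 in double-knockout cells, so its lowest and its highest array of all 12 were both of that genotype. None of these 3 RNA sensors was called, and in all 3 replicate 2 of wt-/mt- was the highest of its genotype.

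**Figure D3:**
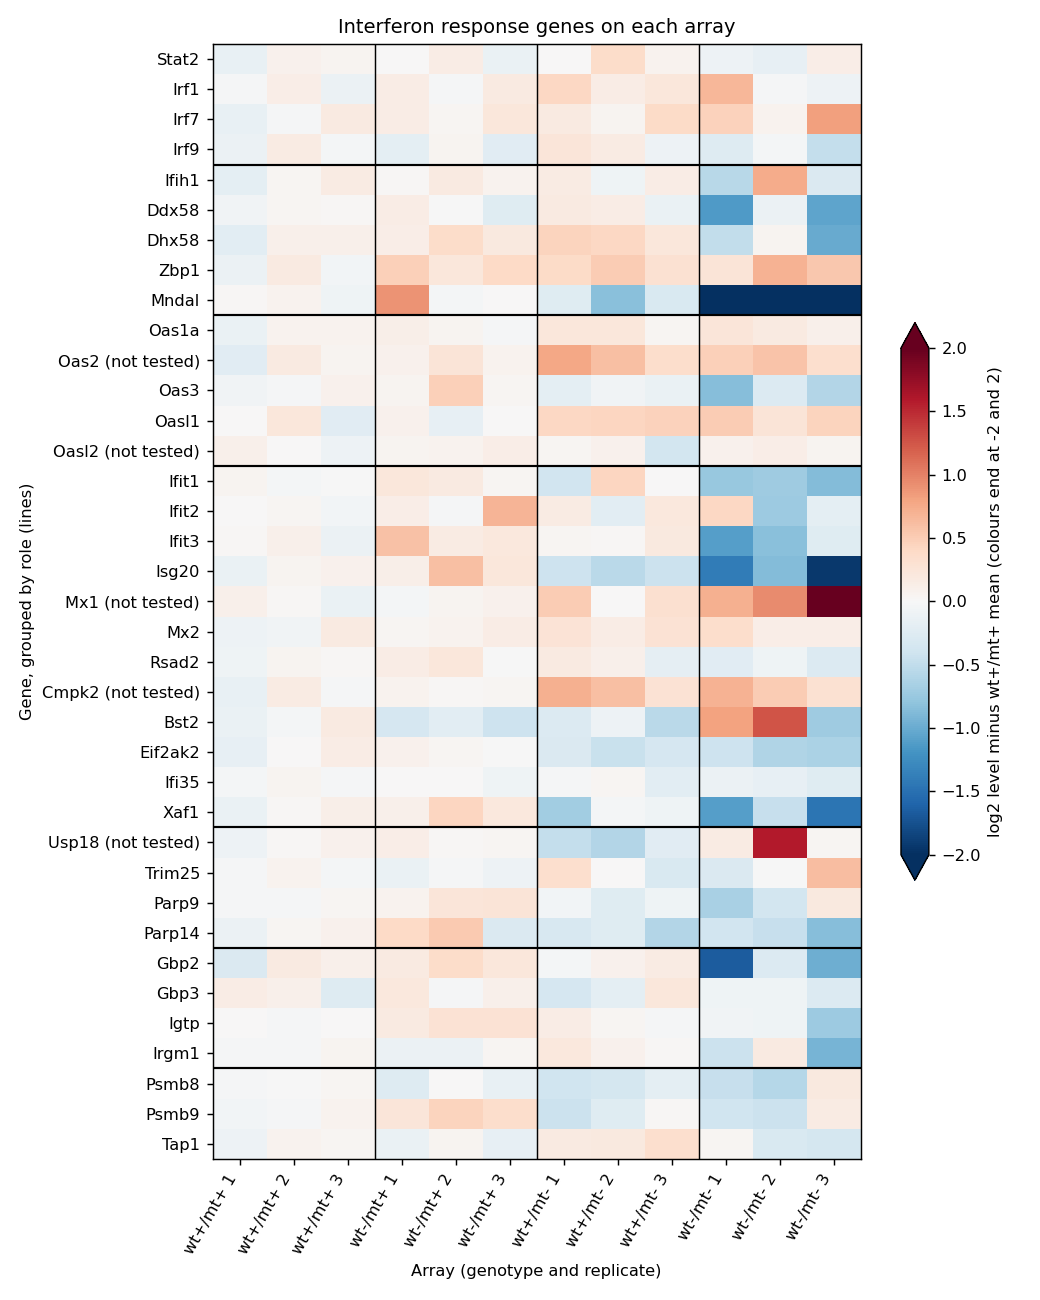
The log2 level of each interferon response gene minus its wt+/mt+ mean on each of the 12 arrays, grouped by role, with red above and blue below 0 and colours ending at -2 and 2. Genes too dim to be tested are marked. By the mean of the 3 wt-/mt- columns, the bluest genes are Mndal, Isg20, Xaf1 and Gbp2. In replicate 2 alone Gbp2 is pale (8.45, against a wt+/mt+ mean of 8.72) and Ifit3 is bluer (6.13 against 6.96). Among the reds of these columns, Mx1 is strongest in replicate 3 and Usp18 and Bst2 in replicate 2.

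Active enzymes of the OAS family make the second messenger that activates RNase L. Oasl1 read 6.77, 7.00 and 6.54 in both-allele cells, 6.85, 6.61 and 6.78 in T24P-only cells, 7.19, 7.21 and 7.23 in wild-type-only cells, and 7.28, 7.03 and 7.22 in double-knockout cells. All 6 arrays without T24P lay above all 6 arrays with it. Oasl1 rose by 0.44 after loss of T24P with the wild-type allele present (SE 0.12, limma adjusted p = 0.0459) and was 0.47 lower in T24P-only than in wild-type-only cells (SE 0.13, limma adjusted p = 0.0476). These calls were kept under 4 and 7 of 20 other settings, and the change after loss of T24P without the wild-type allele was 0.43, not called. Oas3 read 5.95, 6.53 and 6.21 in double-knockout cells, below the 6.61 to 7.29 of every other array. Its change after loss of T24P without the wild-type allele was -0.77 (SE 0.22, limma adjusted p = 0.0541). Oas1a ranged from 7.37 to 7.75 and was not called.

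Antiviral effectors held 4 of the 6 members that fell after loss of T24P without the wild-type allele. Isg20, an exonuclease that degrades single-stranded RNA, read 9.34, 9.52 and 9.56 in both-allele cells, 9.59, 10.08 and 9.70 in T24P-only cells, 9.06, 8.94 and 9.04 in wild-type-only cells, and 8.07, 8.61 and 7.54 in double-knockout cells. The 4 genotypes did not overlap, and the order from the highest was T24P alone, both alleles, wild type alone and neither. The steps from both alleles to T24P alone (0.31, limma adjusted p = 0.290) and to wild type alone (-0.46, limma adjusted p = 0.0658) were not called. Isg20 fell by 1.40 after loss of both alleles (SE 0.26, limma adjusted p = 0.00716) and by 1.71 after loss of T24P without the wild-type allele (SE 0.26, limma adjusted p = 0.00232). It was 0.77 higher with T24P alone than with wild type alone (SE 0.15, limma adjusted p = 0.0171). The first 2 calls were kept under all 21 other settings and the last under 18 of 21, ending without wt+/mt- replicate 2, with a spread shared by all genotypes, and with that spread and without both wt+/mt- arrays of high actin difference. Its change on removing the wild-type allele from cells lacking T24P was -0.94 (SE 0.27, limma adjusted p = 0.0816).

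The IFIT proteins bind viral RNA whose 5' end differs from that of host mRNA. Ifit1 read 6.08, 5.99 and 6.01 in both-allele cells, 6.26, 6.21 and 6.07 in T24P-only cells, 5.65, 6.46 and 6.04 in wild-type-only cells, and 5.27, 5.31 and 5.16 in double-knockout cells. The wt-/mt- arrays were the lowest and close together. Ifit1 fell by 0.93 after loss of T24P without the wild-type allele (SE 0.25, limma adjusted p = 0.0407), a call kept in 11 of 20 other settings and in 3 of the 12 that leave out 1 array (replicate 3 of wt-/mt+ and replicates 1 and 2 of wt+/mt-). The 3 readings in double-knockout cells lie below the array medians of 6.08 to 6.25. Ifit1 lay above the array median only in wt-/mt+ replicates 1 and 2 and wt+/mt- replicate 2. It was thus admitted to testing partly by the genotype it fell from, and the call is not independent of that limit. Ifit3 read 6.98, 7.05 and 6.85 in both-allele cells, 7.54, 7.12 and 7.17 in T24P-only cells, 7.00, 6.99 and 7.15 in wild-type-only cells, and 5.85, 6.13 and 6.73 in double-knockout cells. Its wt-/mt- arrays lay below all others, and it fell by 1.04 in the same comparison (SE 0.24, limma adjusted p = 0.0192). Without wt-/mt- replicate 1 the change was -0.85 at an adjusted p of 0.135, and without replicate 2 it was -0.99 at 0.122, within a range of 0.00486 to 0.135 over the other settings. Ifit2, the neighbouring gene of the family, read 8.00, 6.85 and 7.39 in double-knockout cells and 7.38 to 8.26 elsewhere, overlapping and not called. The 3 family members share chromosome 19, whose median in wt-/mt- replicate 3 was 0.26.

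Xaf1, which antagonises the caspase inhibitor XIAP, read 8.82, 8.98 and 9.08 in both-allele cells, 9.07, 9.40 and 9.17 in T24P-only cells, 8.26, 8.92 and 8.87 in wild-type-only cells, and 7.85, 8.51 and 7.50 in double-knockout cells. It fell by 1.26 after loss of T24P without the wild-type allele (SE 0.30, limma adjusted p = 0.0221), and the call ended without wt-/mt- replicate 1 (adjusted p = 0.105) or replicate 3 (adjusted p = 0.0882), within a range of 0.00553 to 0.105 over the other settings. A second, dim Xaf1 probe set with a mean of 4.57 changed by -0.12 there. Eif2ak2, the kinase PKR that stops translation on double-stranded RNA, read 7.95, 8.11 and 8.26 in both-allele cells, 8.19, 8.15 and 8.09 in T24P-only cells, 7.82, 7.66 and 7.77 in wild-type-only cells, and 7.70, 7.50 and 7.47 in double-knockout cells. All 6 arrays without T24P lay below all 6 with it, the reverse of Oasl1. Eif2ak2 fell by 0.35 after loss of T24P with the wild-type allele present (SE 0.10, limma adjusted p = 0.0427) and was 0.39 higher with T24P alone than with wild type alone (SE 0.10, limma adjusted p = 0.0395). These calls were kept under 7 and 13 of 21 other settings.

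The other tested effectors were not called. Bst2, or tetherin, which holds virions at the membrane, read 9.41, 9.50 and 9.72 in both-allele cells and 10.35, 10.81 and 8.84 in double-knockout cells, so the highest and the lowest of the 12 arrays were both wt-/mt-. In that replicate 3, chromosome 8, which holds Bst2, lay at -0.27. Rsad2, or viperin, read 7.55, 7.70 and 7.52 in double-knockout cells and 7.61 to 8.02 elsewhere. Mx2 ranged from 6.29 to 6.75 and Ifi35 from 11.85 to 12.15.

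**Figure D4:**
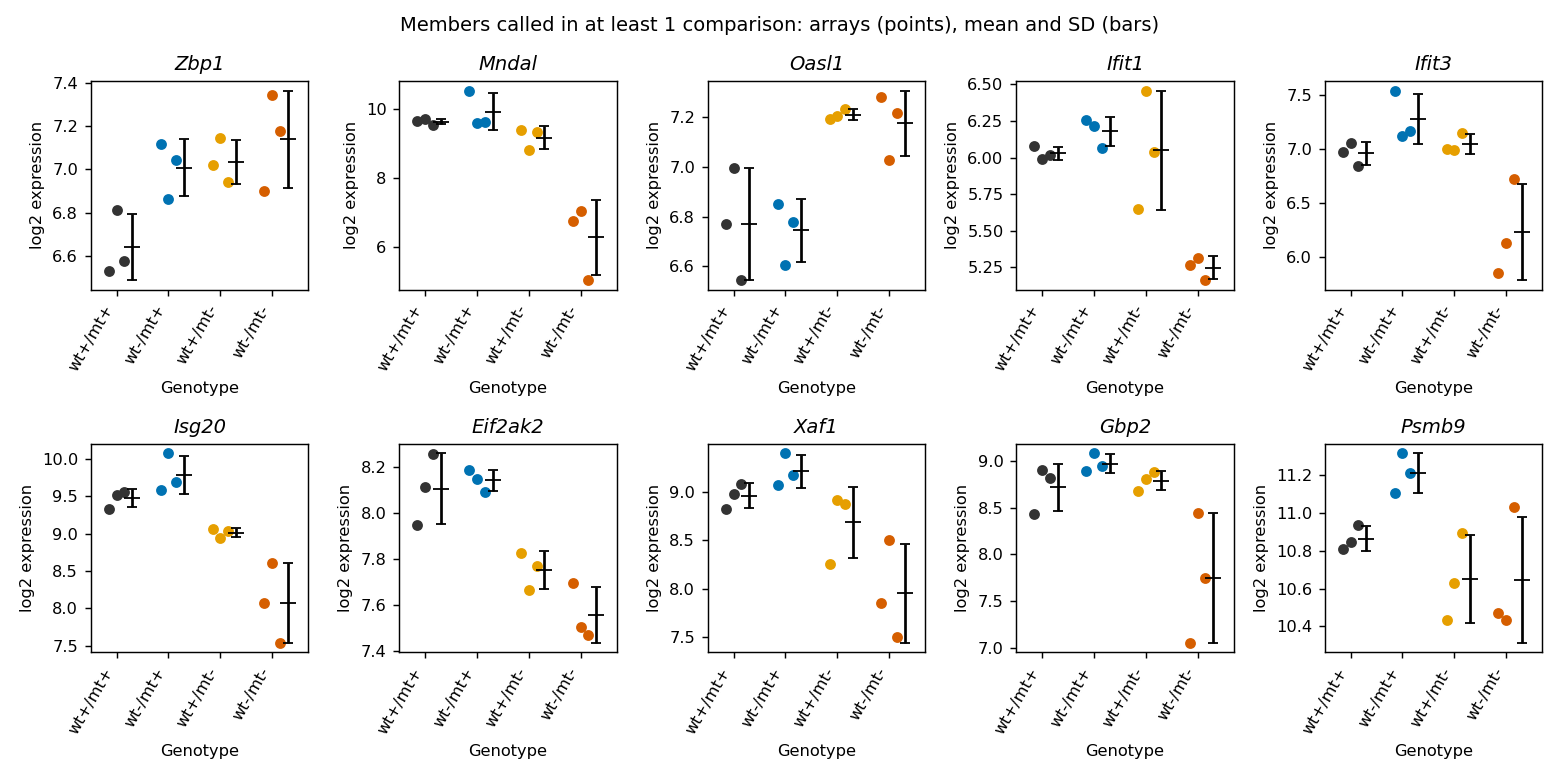
Log2 level of the 10 members called in at least 1 comparison, in each of 4 genotypes, with 1 point per array and the mean and SD of 3 arrays as bars beside the points. Mndal, Isg20, Ifit1 and Ifit3 lie lowest in all 3 wt-/mt- arrays, Oasl1 lies above 7.00 in every array without T24P, and each panel has its own vertical axis, which does not start at 0.

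Of the listed genes of the ISG15 system and the ADP-ribosyl transferases, Trim25, Parp9 and Parp14 were tested, and none was called. Isg15 had no probe set of its own and Usp18 was too dim to be tested. Trim25, the ubiquitin ligase that acts on RIG-I, ranged from 11.09 to 12.01 with its highest value in wt-/mt- replicate 3. Parp9 read 9.12, 9.41 and 9.98 in double-knockout cells and 9.75, 9.75 and 9.82 in both-allele cells. Parp14 was 0.60 higher with T24P alone than with wild type alone (SE 0.19, limma adjusted p = 0.0747). Parp9 and Parp14 lie on chromosome 16, which stood at 0.34 in wt-/mt- replicate 3, the highest of the 3 arrays for Parp9 and the lowest for Parp14.

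Of the interferon-inducible GTPases, Gbp2 was called. This guanylate-binding protein read 8.44, 8.91 and 8.82 in both-allele cells, 8.89, 9.09 and 8.95 in T24P-only cells, 8.69, 8.81 and 8.89 in wild-type-only cells, and 7.05, 8.45 and 7.75 in double-knockout cells. Replicate 2 of wt-/mt- lay just above the lowest both-allele array, and the other wt-/mt- arrays lay below all others. Gbp2 fell by 1.23 after loss of T24P without the wild-type allele (SE 0.29, limma adjusted p = 0.0229). Without wt-/mt- replicate 1 the change was -0.88 at an adjusted p of 0.166, and without replicate 3 it was -1.22 at 0.0612, within a range of 0.00821 to 0.166 over the other settings. A second Gbp2 probe set read 6.86, 8.24 and 7.80 in double-knockout cells and 8.72 to 8.92 in both-allele cells. Gbp3, a related protein encoded on the same chromosome, ranged from 8.62 to 9.19 over all arrays and was not called. Igtp and Irgm1, of the immunity-related GTPases, both had their lowest array in wt-/mt- replicate 3, at 7.93 and 7.30. Igtp changed by -0.55 after loss of T24P without the wild-type allele (SE 0.16, limma adjusted p = 0.0583).

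In antigen processing, Psmb9, an immunoproteasome subunit, differed between the single-allele genotypes. It read 10.81, 10.85 and 10.94 in both-allele cells, 11.11, 11.32 and 11.21 in T24P-only cells, 10.43, 10.63 and 10.90 in wild-type-only cells, and 10.47, 10.44 and 11.03 in double-knockout cells. The 3 T24P-only arrays were the highest of all 12. Psmb9 was 0.56 higher with T24P alone than with wild type alone (SE 0.12, limma adjusted p = 0.0213), a call kept in 15 of 21 other settings. It ended without wt-/mt+ replicate 2 or wt+/mt- replicate 1 or 2, and also with a spread shared by all genotypes (adjusted p = 0.152) and in the fit of 2 genotypes (adjusted p = 0.0522). Its adjusted p ranged from 0.00450 to 0.9997 over the other settings. Without both arrays of high actin difference, a setting that also shares the spread, the change was 0.32. Psmb8, its partner subunit, ranged from 12.43 to 13.20, and Tap1, a subunit of the peptide transporter, ranged from 8.91 to 9.60, with no call for either.

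The dim members had their own pattern, read from a fit with no filter on level over 18194 genes. Mx1, a dynamin-like antiviral GTPase, read 4.44, 4.37 and 4.21 in both-allele cells, 4.31, 4.40 and 4.42 in T24P-only cells, 4.84, 4.35 and 4.65 in wild-type-only cells, and 5.06, 5.28 and 6.49 in double-knockout cells. The wt-/mt- arrays were the 3 highest, and only replicate 3 was above its array's median. Mx1 rose by 1.27 after loss of both alleles (SE 0.26, limma adjusted p = 0.0112, with 4.09% of genes called higher) and by 1.23 after loss of T24P without the wild-type allele (SE 0.26, limma adjusted p = 0.0123, with 3.07% called higher). Usp18, the ISG15 protease that also damps the interferon receptor, read 5.69, 5.82 and 5.88 in both-allele cells, 5.92, 5.82 and 5.84 in T24P-only cells, 5.32, 5.22 and 5.56 in wild-type-only cells, and 5.96, 7.38 and 5.84 in double-knockout cells. A single array, wt-/mt- replicate 2, stood apart, and Usp18 was not called. Oas2 rose by 0.58 (SE 0.13, limma adjusted p = 0.0252) and Cmpk2, a mitochondrial nucleotide kinase, rose by 0.54 (SE 0.11, limma adjusted p = 0.0222) after loss of T24P with the wild-type allele present, where 4.85% of genes were called higher. Cmpk2 was also 0.49 lower with T24P alone than with wild type alone (SE 0.12, limma adjusted p = 0.0389, with 2.80% of genes called lower). Oasl2 stayed between 3.64 and 4.14 and was not called.

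Outside the list, the other genes of the pathway were read from lists by role. Of 10 listed interferon genes, 7 had a probe set, and 2 of these, Ifna1 and Ifnz, were tested. Ifnz fell by 0.91 after loss of both alleles (SE 0.24, limma adjusted p = 0.0367). Of the 21 tested receptors, kinases, STATs, IRFs and inhibitors, 1 fell (4.76%) after loss of both alleles, against 4.80% of all tested genes. It was Irf2, a repressor and activator that binds the ISRE, which fell by 0.75 (SE 0.19, limma adjusted p = 0.0304). After loss of T24P without the wild-type allele, Jak2 and Irf2 fell by 1.03 and 0.84 and Irf5 and Il10rb rose by 1.07 and 0.96, all by limma at adjusted p between 0.0188 and 0.0443. That is 9.52% of the list in each direction, against 5.27% of all tested genes that fell and 2.78% that rose. Stat3 rose by 0.31 after loss of T24P with the wild-type allele present (SE 0.07, limma adjusted p = 0.0270). Of 18 tested upstream sensors and adaptors, 0 were called after loss of both alleles. There, 3 were higher at an unadjusted p below 0.05, against 1539 of 11458 tested genes. After loss of T24P without the wild-type allele, 1 of the 18 rose (5.56%, against 2.78%). It was Unc93b1, the chaperone of endosomal Toll-like receptors, which rose by 0.89.

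Among 30 further tested interferon-induced genes, 4 fell (13.3%) and 1 rose (3.33%) after loss of both alleles, against 4.80% and 2.76% of all tested genes. Apobec3, a cytidine deaminase that restricts retroviruses, read 10.22, 10.64 and 10.60 in both-allele cells and 7.77, 9.19 and 8.87 in double-knockout cells, and fell by 1.88 (SE 0.34, limma adjusted p = 0.00648). The TRIM genes Trim30a and Trim34a fell by 0.85 and 0.81, as did Trim30d, named after its value was seen, by 0.68. Ifi30, a lysosomal thiol reductase of MHC class II processing, rose by 1.12 (SE 0.29, limma adjusted p = 0.0335). The median change of these 30 genes was -0.16, against 0.05 over all tested genes. After loss of T24P without the wild-type allele, 5 fell (16.7%) and 0 rose, against 5.27% and 2.78% of all tested genes: Apobec3 by 1.68, Tor3a by 1.27, Trim30a by 0.96, Trim34a by 0.95 and Trim30d by 0.91. Of 12 tested genes of class I presentation, 1 fell (8.33%) in each of these comparisons, against the same 4.80% and 5.27%. It was Nlrc5, the transactivator of class I genes, which fell by 0.74 after loss of both alleles (SE 0.20, limma adjusted p = 0.0423) and by 1.01 after loss of T24P without the wild-type allele (SE 0.20, limma adjusted p = 0.0101). With T24P alone against wild type alone, Psmb10, Herc6 and Ube2l6 were higher by 0.49, 0.58 and 0.62 and Cgas, the DNA sensor that makes the STING ligand, changed by -0.57. The receptor subunit Il10rb, Irf2bp2 and Stat3 changed by -0.55, -0.44 and -0.36, all called. These are 2 of 30 further induced genes and 1 of 12 class I genes higher (6.67% and 8.33%, against 2.94%), and 3 of 21 receptor and factor genes and 1 of 18 sensors lower (14.3% and 5.56%, against 4.35%).

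Markers of other cell types differed in part on the wt-/mt- arrays. Of 8 macrophage markers, 4 were tested. The summed level of all 8, tested or not, was 9.11 to 9.28 in both-allele cells and 9.44 to 10.12 in double-knockout cells. Cd68, a lysosomal protein of macrophages, rose by 2.31 after loss of T24P without the wild-type allele (SE 0.59, limma adjusted p = 0.0334), while Lyz2, Cd14, Itgam and Mertk lay below the median of every array. The changes of the other tested markers, Csf1r, Adgre1 and Fcgr1, are not given here, so Cd68 does not stand for the list. Each summed level adds unlogged values and is then logged, so 1 bright marker can carry it. Of the plasmacytoid dendritic cell markers, Siglech, Ccr9 and Clec10a were below the filter. The tested ones were Tcf4 and Bst2, itself one of the interferon response genes. The summed level of all 5 on the array was 11.89 to 11.98 in both-allele cells and 11.56 to 12.06 in double-knockout cells. Of the NK cell markers, Prf1 and Eomes were tested. The summed level of all 5 NK markers on the array was 11.10 to 11.22 in both-allele cells and 8.30 to 11.96 in double-knockout cells. The T cell, stromal and erythroid lists had 3, 1 and 0 tested markers. The summed B cell level was 16.13 to 16.19 in both-allele cells and 15.44 to 15.97 in double-knockout cells. The part of these shifts in the members' values was not tested, and in bulk RNA fewer cells of a type and less RNA per cell cannot be told apart.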

How the data were processed

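Total RNA from BL#19 cells was hybridised to 12 Affymetrix arrays after a 3' IVT reaction, per the labels' protocols. The authors deposited log2 values of 3.09 to 15.57. The submitters' processing notes name RMA with no version, and log2 is inferred from RMA's usual output and from this range. Of 45101 probe sets, 34958 name 1 gene, 932 name several and 9211 are not named in the annotation used. Groups came from the labelled genotype. Tests were run with limma 3.58.1 under R 4.3.3. Each genotype had its own mean (lmFit) and its own variance weight (arrayWeights), followed by eBayes. The weights gave relative variances of 0.46, 0.60, 0.92 and 3.96 for wt+/mt+, wt-/mt+, wt+/mt- and wt-/mt-. The number of arrays limits the precision. The code was tested on simulated data.

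Alternatives were a shared spread, fits of 2 genotypes, filters, scalings, the median over a gene's probe sets, and leaving out arrays. Array-by-array values are given for members called in any test and for 6 genes that define the pathway. Of the pathway lists, up to 4 called genes per list and comparison were named, by size, and Trim30d was named beyond this. The members and lists were chosen with earlier results of these data known, so no count over them is independent evidence. Sequences are from RefSeq (GRCm38.p6).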

Additional observations from a re-analysis of the deposited data

Results flagged for a closer look

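In 3 members, the change after loss of T24P differed by a test of the difference itself between cells without and cells with the wild-type allele (limma interaction, Benjamini-Hochberg over 11458 genes). The difference was -3.18 for Mndal (SE 0.56, limma adjusted p = 0.00970), -1.25 for Isg20 (SE 0.30, limma adjusted p = 0.0410) and -1.13 for Ifit3 (SE 0.27, limma adjusted p = 0.0427). Mndal changed by -3.64 without and by -0.46 with the wild-type allele, and Isg20 by -1.71 and -0.46. The call for Mndal was kept under 19 of 20 other settings, that for Isg20 under 9 of 20 and that for Ifit3 under 6 of 19. With a spread shared by all genotypes, the adjusted p of Mndal was 0.0229 with all 12 arrays. Without both wt+/mt- arrays of high actin difference and with that spread, Mndal stood at -3.34 with an adjusted p of 0.171, within a range of 0.00756 to 0.171 over the other settings. The 3 wt-/mt- arrays lay below all other arrays for each of these genes. The genes were picked by the interaction call on the same arrays, so this separation is not independent evidence for it. The share of all tested genes with wt-/mt- arrays below all others is not given here, so how unusual the separation is was not tested.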

How the results depend on the processing

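The directions of all called members were kept under every setting tried, and the calls of Mndal and Isg20 after loss of both alleles, and after loss of T24P without the wild-type allele, were kept under all 21. Counts of called members moved more. Under every setting they cover no genes beyond the 32 tested members. The fit with no filter also called the dim members Mx1, Oas2 and Cmpk2 (above), which these counts leave out. The setting without both high-actin arrays also shares the spread. After loss of both alleles, 2 fell, which became 9 with a shared spread, 8 with arrays centred within chromosomes (chosen after seeing the data), 7 with no filter, 6 with arrays centred on their medians, 6 without both wt+/mt- arrays of high actin difference (shared spread) and 5 with quantile normalization. The 0 that rose there became 2 with a shared spread and 1 without both high-actin arrays. After loss of T24P without the wild-type allele, 6 fell, which became 13 (shared spread), 11 (median-centred), 10 (chromosome-centred) and 10 (without both high-actin arrays), and 0 that rose became 1 (shared spread). On removing the wild-type allele from cells lacking T24P, 1 fell, which became 8 (shared spread), 2 (chromosome-centred) and 2 (median over probe sets). Calls over all 11458 tested genes moved as well. Lower after loss of both alleles were 550 (main), 1139 (shared spread), 629 (chromosome-centred), 870 (median-centred) and 530 (quantile normalization). With no filter, 771 of 18194 were. After loss of T24P without the wild-type allele they were 604 (main), 1269 (shared spread), 808 (median-centred) and 578 (chromosome-centred). In cells lacking T24P they were 304 (main), 942, 301 and 301. After loss of T24P with the wild-type allele, 2 rose, which became 1 with no filter and with the median over probe sets, and 0 under the shared spread, the fit of 2 genotypes, a mean of at least 7, either scaling, chromosome centring and without both high-actin arrays. There, 1 fell, which became 3 (median-centred), 2 (chromosome-centred), 2 (median over probe sets) and 0 (shared spread, a mean of at least 7, without both high-actin arrays). With T24P alone against wild type alone, 3 higher became 7 (median-centred), 1 (fit of 2 genotypes) and 0 (shared spread, without both high-actin arrays), and 1 lower became 0 under the shared spread, a mean of at least 7, median centring and without both high-actin arrays. The interaction's 3 became 5 (no filter), 1 (shared spread) and 0 (without both high-actin arrays). Over all tested genes, the shared spread called 1396 higher after loss of both alleles and 1117 after loss of T24P without the wild-type allele. After loss of T24P with the wild-type allele it called 13 higher and 8 lower, and the fit of 2 genotypes 353 and 175. For T24P alone against wild type alone, these fits called 4 and 6, and 125 and 277. All-gene counts of the interaction under these settings are not given here. The causes were not tested.

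Leaving out 1 array in turn gave, after loss of both alleles, 0 to 1 higher and 2 to 5 lower. It gave 0 to 1 higher and 2 to 9 lower after loss of T24P without the wild-type allele, 0 to 1 higher and 1 to 2 lower on removing the wild-type allele from cells lacking T24P, and 0 to 2 higher and 0 to 2 lower after loss of T24P with it. It gave 0 to 4 higher and 0 to 1 lower for T24P alone against wild type alone, 1 to 3 for the interaction and 4 to 7 for the F test. All-gene calls moved too, with 70 to 373 higher and 259 to 681 lower after loss of both alleles. They were 75 to 333 and 311 to 634 after loss of T24P without the wild-type allele. On removing the wild-type allele from cells lacking T24P they were 29 to 358 and 146 to 426. For T24P alone against wild type alone they were 2 to 1045 and 3 to 874. Over all tested genes, median centring also turned 316 higher and 550 lower after loss of both alleles into 223 and 870, and 319 and 604 after loss of T24P without the wild-type allele into 258 and 808. No paired analysis was possible because the labels' replicate numbers run on from 1 to 12 and pair no arrays. Signal over background limits Ifit1, Stat2 and the 5 untested members, which read near or below the array median.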
